A study of Mus musculus with 3 samples.

Results

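A set of 10 fibroblast genes were followed across 3 expression arrays, grouped by role. They were the surface genes Thy1 and Fap, the growth factor receptors Pdgfra and Pdgfrb, the secreted matrix genes Dpt and Postn, the fibrillins Fbn1 and Fbn2, the secreted inhibitor Pi16 and the calcium-binding gene S100a4. They were chosen by name, with earlier results of the same arrays known, and their probes were found by matching accessions in the scanner files to RefSeq genes. This gave 12 probes for 10 genes, of 39404 probes and 20006 named genes on the array. All values below are therefore descriptions of these arrays and carry no test. Every sample was labelled as RNA of primary mouse embryonic fibroblasts from E10.0 embryos of Rb-ATM double knockout C57BL/6J mice. By these labels all 3 groups carried both knockouts. The first group received a vector expressing DNMT1 shRNA, a hairpin RNA that depletes the maintenance DNA methyltransferase. The second received a vector expressing ATM, a DNA damage kinase, and the third an empty vector. The first 2 groups are described as made from the cells of the third. Each was kept in puromycin at 4 ug/ml for 3 days and cultured for 4 more days, and 200 ng of total RNA was labelled with Cy3 for 1 array per group. No group had a second culture, so no p-value or standard error can be given, and precision is limited by this number of arrays.

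Fibroblasts build and anchor connective tissue. They read platelet-derived growth factor through the receptor tyrosine kinases Pdgfra and Pdgfrb, and they carry the GPI-anchored glycoprotein Thy1 and the serine protease Fap on the surface. Around themselves they lay down fibrillin microfibrils, the thin filaments on which elastin is deposited and which bind latent TGF-beta complexes. Fbn1 is the main fibrillin of tissues throughout life and Fbn2 is most prominent during development. Dpt (dermatopontin) and Postn (periostin) are secreted proteins that bind collagen. In mouse single-cell atlases Pi16 and Dpt mark fibroblasts found in many organs, and S100a4, also called fibroblast-specific protein, marks motile mesenchymal cells but occurs in leukocytes too.

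Dnmt1 copies methyl groups onto CG dinucleotides after replication. Promoter letters are shown for 4 of the genes whose signal differed at least 2-fold between arrays, so that their CG can be seen. Each run is the 250 bases before a transcription start on the plus strand of GRCm38.p6, from RefSeq, 5′ to 3′, and capitals mark each CG and each TATAAA. The run of Dpt is chr1:164796413-164796662, that of Pi16 is chr17:29318632-29318881 and that of S100a4 is chr3:90603520-90603769. Postn has 2 listed starts, and the run before the second is chr3:54360857-54361106.
Dpt: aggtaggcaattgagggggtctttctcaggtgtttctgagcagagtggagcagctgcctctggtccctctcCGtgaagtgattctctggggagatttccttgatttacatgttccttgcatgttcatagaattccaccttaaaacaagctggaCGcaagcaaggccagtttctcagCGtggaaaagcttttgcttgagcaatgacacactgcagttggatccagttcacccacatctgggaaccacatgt
Postn: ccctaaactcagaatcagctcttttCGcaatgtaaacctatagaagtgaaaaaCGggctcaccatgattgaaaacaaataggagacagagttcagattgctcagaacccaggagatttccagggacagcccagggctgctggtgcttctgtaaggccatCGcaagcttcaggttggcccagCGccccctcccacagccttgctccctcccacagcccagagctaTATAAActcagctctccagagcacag
Pi16: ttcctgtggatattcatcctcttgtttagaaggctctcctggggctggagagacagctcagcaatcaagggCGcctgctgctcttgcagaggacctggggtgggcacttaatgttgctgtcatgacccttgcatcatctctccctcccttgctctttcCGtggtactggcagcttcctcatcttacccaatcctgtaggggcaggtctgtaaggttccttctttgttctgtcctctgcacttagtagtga
S100a4: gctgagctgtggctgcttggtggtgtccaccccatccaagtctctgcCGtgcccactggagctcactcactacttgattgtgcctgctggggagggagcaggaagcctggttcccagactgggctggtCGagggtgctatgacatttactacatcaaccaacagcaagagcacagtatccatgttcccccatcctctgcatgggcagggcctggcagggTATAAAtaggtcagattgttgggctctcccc
All 4 runs held fewer CG than the median promoter. There were 3 in Dpt, 4 in Postn, 2 in Pi16 and 2 in S100a4, against a median of 6 (quartiles 2 and 16) over 32851 promoters of 27025 genes. The first listed start of Postn (chr3:54359017-54359266) had 3, Pdgfra (chr5:75152001-75152250) had 4, and Fbn1 (chr2:125506439-125506688, minus strand) had 13. TATAAA, searched on both strands, stood 26 bases before the second start of Postn and 31 bases before the start of S100a4, and occurred in 12.4% of all promoters. TGANTCA, searched on both strands, was in none of these promoters and in 6.75% of all. These matches are letters in a window and do not show that a factor binds or that a base is methylated. Methylation was not measured here.

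Each array is called by its cells. Of the probes, 59.6% were well above background in Dnmt1 shRNA cells, 55.0% in cells labelled ATM vector and 55.1% in empty-vector cells. The detection limit, taken as the lowest such signal, was 25.1 intensity units in Dnmt1 shRNA cells, 32.7 in cells labelled ATM vector and 37.8 in empty-vector cells. Dnmt1 shRNA and empty-vector cells shared a slide. Those labelled ATM vector had a slide of their own, so slide and group cannot be told apart for them. Both comparisons share the empty-vector array. The Dnmt1 probe had a signal of 956 in Dnmt1 shRNA cells and 4908 in empty-vector cells, 4.58-fold lower after scaling. The Atm probe above background had 409 in cells labelled ATM vector and 430 in empty-vector cells. Where it lies relative to the deletion or the vector insert was not known, so it does not check that label. The Rb1 probe was above background on every array, with 782 in Dnmt1 shRNA cells, 460 in cells labelled ATM vector and 541 in empty-vector cells. After scaling it was 1.62-fold higher in Dnmt1 shRNA cells than in empty-vector cells. Its place relative to the Rb deletion was not known either, so it does not check the knockout. All 16 of 16 other fibroblast markers, among them Col1a1, Col1a2 and Vim, were well above background on every array. Under the ATM vector label 2 of the 16 were at least 2-fold lower, Lum (log2 ratio -3.21, 9.23-fold lower) and Dcn (-1.10, 2.15-fold lower), and in Dnmt1 shRNA cells 1 was higher (Lum, 1.31) and 0 were lower. Of 12 epithelial markers 10 were above background in Dnmt1 shRNA cells, 6 in cells labelled ATM vector and 6 in empty-vector cells, and their summed scaled signal was 3.55, 2.78 and 2.65 in that order. Of the 10 epithelial markers counted in Dnmt1 shRNA cells 5 were at least 2-fold higher and 0 lower, among them Krt8, Krt18 (at least 39.8-fold) and Krt14 (4.24-fold). Of the 6 counted under the ATM vector label 1 was higher (Krt14, 63.1-fold) and 2 were lower. Of 12 striated muscle markers the numbers above background were 6, 4 and 3, with sums of 3.96, 5.78 and 2.74, and of 11 cartilage, bone and fat markers 6, 6 and 6, with sums of 36.6, 10.4 and 31.0. Epcam, Cldn4, Myod1 and Myog were not above background on any array. The epithelial genes Cdh1, Krt19, Krt5, Krt14, Cldn7 and Esrp1 and the muscle genes Acta1, Tnni2 and Tnnt2 were above it on every array. Muscle genes 2-fold or more above empty-vector cells numbered 3 of 4 counted under the ATM vector label, among them Tnni2 (7.94-fold). In Dnmt1 shRNA cells they numbered 3 of 6, and 0 with dim genes at their bound. None was 2-fold lower in either comparison. Of 10 endothelial markers 5, 4 and 4 and of 12 neural markers 8, 8 and 8 were above background. The endothelial genes Pecam1, Kdr, Vwf and Egfl7 and the neural genes Tubb3, Map2 and Gap43 were above it on every array. Cdh5, Tek and Nefl were on no array. The part of other cells in the values below was not tested. In RNA of whole cultures, fewer cells of a type and less RNA per cell cannot be told apart.

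All 10 genes were well above background in Dnmt1 shRNA cells, against 8 of 10 in empty-vector cells, where Thy1 and Dpt were not. Those labelled ATM vector also had 8 of 10 above background, without Fap and Dpt. Ratios below are differences of log2 processed signal less the 75th percentile of the array, and a 2-fold difference is used as a descriptive limit. In Dnmt1 shRNA cells 4 of 10 genes (Thy1, Dpt, Postn and Pdgfra) were at least 2-fold higher than in empty-vector cells, beside 7.86% of all 13781 genes counted (5.2% with dim genes at their bound). Fap alone was at least 2-fold lower, beside 1.83% of all genes (1.57% with bounds). In cells labelled ATM vector 3 of the 9 genes counted (Pi16, Postn and S100a4) were at least 2-fold higher, beside 8.69% of 13238 genes (7.55% with bounds). There Fbn2 and Fap were at least 2-fold lower, beside 8.08% of all genes (6.82% with bounds). Over probes above background on both arrays, 2 genes were higher and 1 lower in Dnmt1 shRNA cells, beside 3.51% and 0.748% of 12569 genes. The same rule gave 3 higher and 1 lower in cells labelled ATM vector, beside 6.2% and 4.63% of 12158 genes. The genes were picked with these differences known, so nothing is read from the counts against those percentages. The median log2 ratio of the 10 genes was 0.66 in Dnmt1 shRNA cells, beside -0.0088 over all genes, and that of the 9 in cells labelled ATM vector was -0.0032, beside 0.025.

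**Figure D1:**
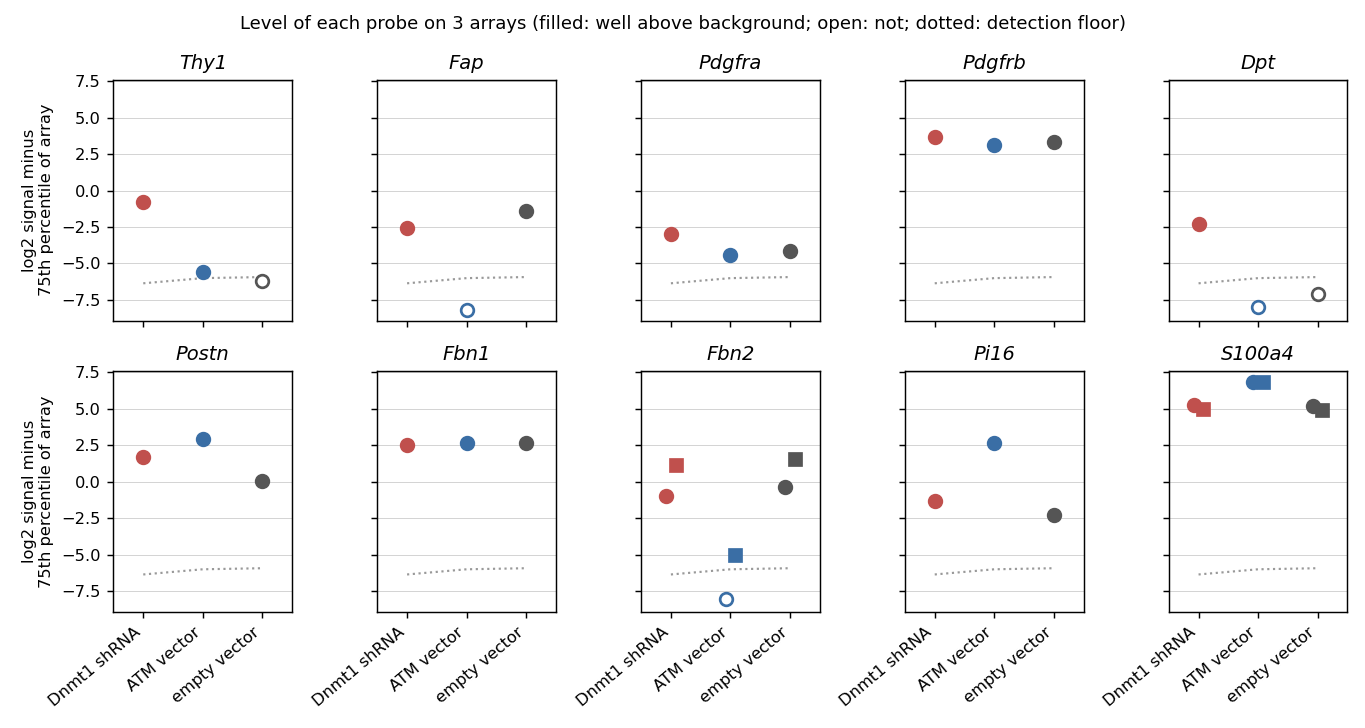
Log2 processed signal minus the 75th percentile of the array (vertical axis, log2 units) for each gene in Dnmt1 shRNA cells (red), cells labelled ATM vector (blue) and empty-vector cells (grey), 1 array per group. Filled symbols are well above background, open symbols are not, squares are a second probe and the dotted line is the lowest signal well above background. Thy1 and Dpt stand clear of the dotted line only in Dnmt1 shRNA cells, Fap and Fbn2 are lowest in cells labelled ATM vector, and Pdgfrb and Fbn1 are nearly level.

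Thy1 had a processed signal of 1218 intensity units in Dnmt1 shRNA cells, 44.3 in cells labelled ATM vector and 31.8 in empty-vector cells, where it was not well above background. It was thus bright in 1 culture and close to the detection limit in the other two. Against the detection limit in empty-vector cells it was at least 36.2-fold higher in Dnmt1 shRNA cells and at least 1.29-fold higher in cells labelled ATM vector. The unbounded log2 ratio in Dnmt1 shRNA cells was 5.43, or 3.72 with the background corrected by normexp on the median signals. Thy1 is also carried by T cells. Of 7 T cell markers 3 (Cd3e, Cd4 and Lck) were above background on each array, and Cd3d, Cd3g, Cd8a and Cd2 were on none. The summed scaled signal of these markers was 1.32 in Dnmt1 shRNA cells, 1.36 in cells labelled ATM vector and 1.41 in empty-vector cells. The part of T cells in the Thy1 value was not tested.

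Fap ran the other way. Its signal was 353 in Dnmt1 shRNA cells, 7.30 in cells labelled ATM vector, not above background, and 855 in empty-vector cells. Empty-vector cells were highest, and cells labelled ATM vector lay below their detection limit. The log2 ratio in Dnmt1 shRNA cells was -1.11 (2.16-fold lower), with a software error of 0.20, and it was -0.88 with normexp, which is inside the 2-fold limit. It was at least 23.8-fold lower in cells labelled ATM vector, where normexp gave a log2 ratio of -3.43. Fap lies on chromosome 2, where the median log2 ratio of 956 genes measured on both arrays was -0.23 under the ATM vector label and 6.07% were at least 2-fold lower. Over probes above background on both arrays, that share was 4.63% of 12158 genes. The part of the chromosome-wide shift in the Fap value was not tested. Its relative Dpp4, the next gene but one, which encodes a surface dipeptidyl peptidase, was not above background on any array. None of the 6 other FAP and DPP4 family proteases counted was 2-fold different in either comparison, and their medians were -0.086 in Dnmt1 shRNA cells and 0.15 in cells labelled ATM vector.

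Pdgfra, which binds PDGF-A and other PDGF chains, was measured by 10 spots of 1 probe and had a signal of 264 in Dnmt1 shRNA cells, 98.9 in cells labelled ATM vector and 131 in empty-vector cells. Before scaling, the spots ran from 246 to 280 in Dnmt1 shRNA cells and from 84.2 to 106.6 in cells labelled ATM vector. The 9 empty-vector spots kept ran from 116 to 144. The 75th percentiles of the arrays differed (2061, 2101 and 2312 in that order), so no overlap is read from these unscaled ranges. Spots repeat the reading of 1 RNA sample, not the culture. The log2 ratio was 1.18 (2.26-fold higher) in Dnmt1 shRNA cells, but 0.94 when arrays were scaled by their median, 0.84 with normexp and 0.997 with quantile normalization, all inside the 2-fold limit. It was -0.27 in cells labelled ATM vector.

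Pdgfrb, the receptor best known from pericytes and the fibroblast lineage, was bright on all arrays. It had 25782 units in Dnmt1 shRNA cells, 18620 in cells labelled ATM vector and 22673 in empty-vector cells. These 3 values lay within a narrow range, with log2 ratios of 0.35 in Dnmt1 shRNA cells and -0.15 in cells labelled ATM vector, each with a software error of about 0.20. Of 19 other genes of the PDGF pathway counted, 0 were 2-fold different in Dnmt1 shRNA cells (median 0.017). Under the ATM vector label 1 of 18 was higher and 2 were lower (median -0.21), beside 8.69% and 8.08% of all genes. The ligand gene Pdgfb had a log2 ratio of 0.72 in Dnmt1 shRNA cells and 1.10 in cells labelled ATM vector. Pdgfd, another ligand gene, had -0.13 in Dnmt1 shRNA cells and -1.58 in cells labelled ATM vector. The receptor-like gene Pdgfrl had -0.0038 in Dnmt1 shRNA cells and -1.18 in cells labelled ATM vector.

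**Figure D2:**
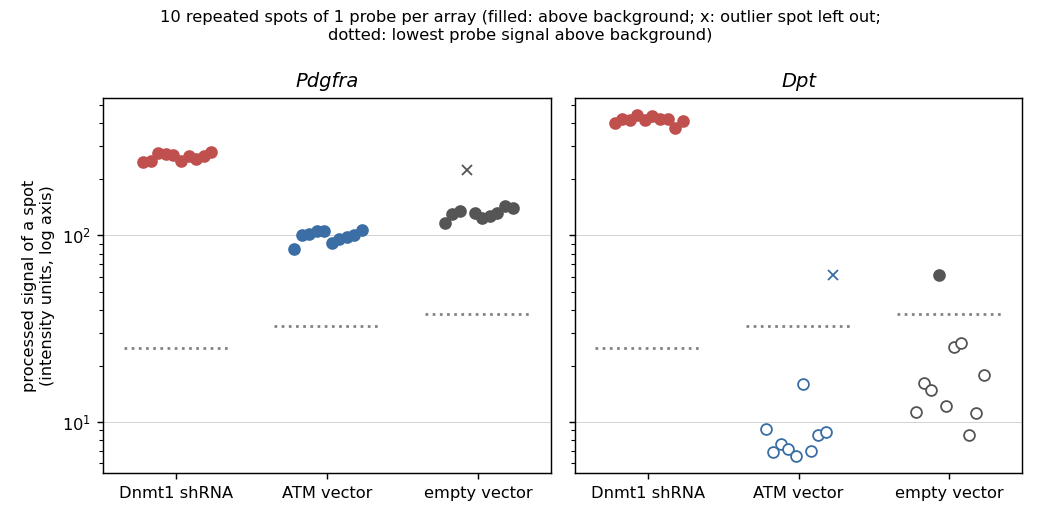
Processed signal of each of the 10 spots of the Pdgfra and Dpt probes (vertical axis, intensity units on a log scale) in Dnmt1 shRNA cells, cells labelled ATM vector and empty-vector cells. Filled points are well above background, open points are not, crosses are outlier spots left out and the dotted line is the lowest signal well above background. The Dnmt1 shRNA spots lie above all spots kept on the other arrays for both genes.

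Dpt, which helps to organise collagen fibrils, was also read by 10 spots. Its signal was 416 in Dnmt1 shRNA cells, 8.32 in cells labelled ATM vector and 17.2 in empty-vector cells. All 10 spots of Dnmt1 shRNA cells (377 to 443) were well above background. In cells labelled ATM vector none of the 9 spots kept (6.58 to 15.98) was, and in empty-vector cells 1 of 10 was (8.55 to 61.2). Dpt was therefore at least 12.3-fold higher in Dnmt1 shRNA cells than in empty-vector cells, and no fold is given for cells labelled ATM vector. The unbounded log2 ratio in Dnmt1 shRNA cells was 4.76, or 2.49 with normexp.

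Postn, a matricellular protein of periosteum, tendon and healing tissue, had a signal of 6810 in Dnmt1 shRNA cells, 15996 in cells labelled ATM vector and 2337 in empty-vector cells. Empty-vector cells were the lowest, and cells labelled ATM vector the highest. The log2 ratio was 1.71 (3.27-fold higher) in Dnmt1 shRNA cells and 2.91 (7.53-fold higher) in cells labelled ATM vector, with a software error of 0.20 in each. Over the scalings and background corrections tried it ran from 1.47 to 1.75 in Dnmt1 shRNA cells and from 2.77 to 2.91 in cells labelled ATM vector.

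Most other matricellular genes counted were not 2-fold higher where Postn was. Of 19 counted in Dnmt1 shRNA cells, 3 (15.8%) were at least 2-fold higher, or 2 with bounds, and 1 was lower (median 0.33). Over all genes 7.86% were higher and 1.83% lower there. Of 17 in cells labelled ATM vector, 1 was higher and 5 were lower (median -0.68), beside 8.69% and 8.08% of all genes. Tgfbi, the closest relative of Postn, had log2 ratios of -0.69 in Dnmt1 shRNA cells and 1.16 in cells labelled ATM vector; it was named after its values were seen. Comp, a cartilage and tendon matrix protein, had 2.40 in Dnmt1 shRNA cells and 0.93 in cells labelled ATM vector. Ccn5, a secreted CCN family protein, had 2.05 in Dnmt1 shRNA cells and -1.35 in cells labelled ATM vector. The calcium-binding matrix protein gene Smoc1 had 0.44 in Dnmt1 shRNA cells and was at least 10.2-fold lower in cells labelled ATM vector.

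Of the 2 fibrillins, Fbn1 was level and Fbn2 was far lower in cells labelled ATM vector. Fbn1 had a signal of 11708 in Dnmt1 shRNA cells, 13083 in cells labelled ATM vector and 14428 in empty-vector cells. These were nearly level, with log2 ratios of -0.14 in Dnmt1 shRNA cells and -0.0032 in cells labelled ATM vector. The brighter Fbn2 probe had 4545 in Dnmt1 shRNA cells, 65.5 in cells labelled ATM vector and 6853 in empty-vector cells. The other Fbn2 probe had 1023 in Dnmt1 shRNA cells, 7.87 in cells labelled ATM vector, where it was not above background, and 1779 in empty-vector cells.

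Both Fbn2 probes therefore gave the same order, with cells labelled ATM vector far below the other two. There the brighter probe had a log2 ratio of -6.57 (95.1-fold lower, software error 0.29), and the other was at least 49.5-fold lower. Log2 ratios in Dnmt1 shRNA cells were -0.43 and -0.63, inside the 2-fold limit. With normexp the gene's mean log2 ratio in cells labelled ATM vector was -4.89, against -7.13 without it. Fbn2 lies on chromosome 18, where 301 genes measured on both arrays had a median log2 ratio of -0.33 there and 11.3% were at least 2-fold lower. Over probes above background on both arrays, 4.63% of 12158 genes were. Pdgfrb is on the same chromosome, at -0.15. The part of the chromosome-wide shift in the result was not tested.

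Elsewhere in the elastic fibre 28 other genes were counted. In Dnmt1 shRNA cells 5 were at least 2-fold higher and 0 lower (median 0.15), beside 7.86% and 1.83% of all genes. The list was chosen with earlier results known, so nothing is read from the counts. The higher 5 were Eln (1.49), Mfap4 (1.33), Mfap5 (1.18), Ltbp2 (1.16) and Adamts17, which was at least 2.09-fold higher. Eln encodes elastin, Mfap4 and Mfap5 are microfibril-associated, Ltbp2 is of the latent TGF-beta binding protein family and Adamts17 is a metalloprotease gene. Mfap5 and Ltbp2 were named after their values were seen. Under the ATM vector label 1 of 28 was higher and 2 were lower (median 0.17), beside 8.69% and 8.08% of all genes. Adamts17 was at least 2.94-fold higher there. Eln was at -2.42 (5.35-fold lower) and Lox, the oxidase that crosslinks elastin and collagen, was at -1.18, while Mfap4 was at 0.039. Eln was thus higher than in empty-vector cells under Dnmt1 shRNA and lower under the ATM vector label.

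Pi16, a secreted protein of the CAP superfamily, had a signal of 833 in Dnmt1 shRNA cells, 13396 in cells labelled ATM vector and 477 in empty-vector cells. Cells labelled ATM vector were far above both others. The log2 ratio was 4.95 (30.9-fold higher) in cells labelled ATM vector and 4.60 with normexp. It was 0.97 in Dnmt1 shRNA cells (1.96-fold higher), just inside the 2-fold limit, and passed it at 1.01 when arrays were scaled on probes detected on all 3. Of 11 relatives of Pi16 with a CAP domain on the array, 5 were counted in Dnmt1 shRNA cells. There 4 were at least 2-fold higher (3 with bounds, median 1.17), beside 7.86% of all genes (5.2% with bounds). Of these, Glipr1l1, named after its values were seen, was dim in empty-vector cells and at least 1.09-fold higher. The ATM vector culture had 2 of 4 higher and 1 lower (median 0.91), beside 8.69% and 8.08% of all genes. The list was chosen with earlier results known, so nothing is read from these counts. Glipr1 had log2 ratios of 1.14 in Dnmt1 shRNA cells and 2.04 in cells labelled ATM vector, and Crispld2 had 1.17 in Dnmt1 shRNA cells and 1.27 in cells labelled ATM vector. R3hdml had 1.66 in Dnmt1 shRNA cells and was at least 6.69-fold lower in cells labelled ATM vector.

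Genes listed for Dpt and Pi16 positive fibroblasts differed from gene to gene. Of 18 counted, 4 were at least 2-fold higher and 0 lower in Dnmt1 shRNA cells (median 0.27), beside 7.86% and 1.83% of all genes. In cells labelled ATM vector 5 were higher and 1 lower (median 0.41), beside 8.69% and 8.08%. This list too was chosen with earlier results known, so nothing is read from its counts. Efhd1, a mitochondrial calcium-binding gene, had log2 ratios of -0.032 in Dnmt1 shRNA cells and 4.46 (22.1-fold higher) in cells labelled ATM vector. Pcolce2, an enhancer of procollagen processing, had -0.58 in Dnmt1 shRNA cells and 3.95 (15.4-fold higher) in cells labelled ATM vector. Igfbp6, which binds insulin-like growth factor II, had 3.38 (10.4-fold higher) in Dnmt1 shRNA cells and 0.54 in cells labelled ATM vector. Scara3, a scavenger receptor gene, had 0.27 in Dnmt1 shRNA cells and -2.55 in cells labelled ATM vector.

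S100a4 was read by 2 probes. One had a signal of 78364 in Dnmt1 shRNA cells, 234712 in cells labelled ATM vector and 85167 in empty-vector cells. The other had 66391 in Dnmt1 shRNA cells, 241439 in cells labelled ATM vector and 70511 in empty-vector cells. Both put cells labelled ATM vector above the other two, which were level. The log2 ratios in cells labelled ATM vector were 1.60 and 1.91 (3.03-fold and 3.77-fold higher). They were 0.046 and 0.079 in Dnmt1 shRNA cells, and the mean of 0.062 turned to -0.18 when arrays were scaled by their median. No spot on any array was marked as saturated. Of 11 blood and macrophage markers 5 were above background in Dnmt1 shRNA cells, 5 in cells labelled ATM vector and 6 in empty-vector cells. Their summed scaled signals were 8.28, 5.72 and 6.25. Csf1r, Fcer1g, Itgam, Cd14 and Cd3e were above background on every array, and Adgre1, Lyz2 and Tyrobp on none. Of 6 counted in Dnmt1 shRNA cells 2 were at least 2-fold higher, among them Fcer1g (3.13-fold), and 0 lower. Under the ATM vector label 0 of 6 were higher and 1 was lower.

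Most relatives of S100a4 stayed closer to 0 than it did in cells labelled ATM vector. The S100 list includes S100pbp, the gene of an S100-binding protein rather than of an S100 protein. Of 11 other genes of this list counted in Dnmt1 shRNA cells 1 was at least 2-fold higher (median 0.092), beside 7.86% of all genes. Of 12 in cells labelled ATM vector 2 were higher (1 with bounds, median 0.27), beside 8.69% of all genes. The gene beyond the limit in both was S100b, a glial and cartilage S100 protein, at 2.80 in Dnmt1 shRNA cells and 2.39 in cells labelled ATM vector. The direct neighbours of S100a4 on chromosome 3 had log2 ratios of 0.68 (S100a3) and 0.32 (S100a5) in cells labelled ATM vector, and S100a6 and S100a16 had 0.23 and -0.63.

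**Figure D3:**
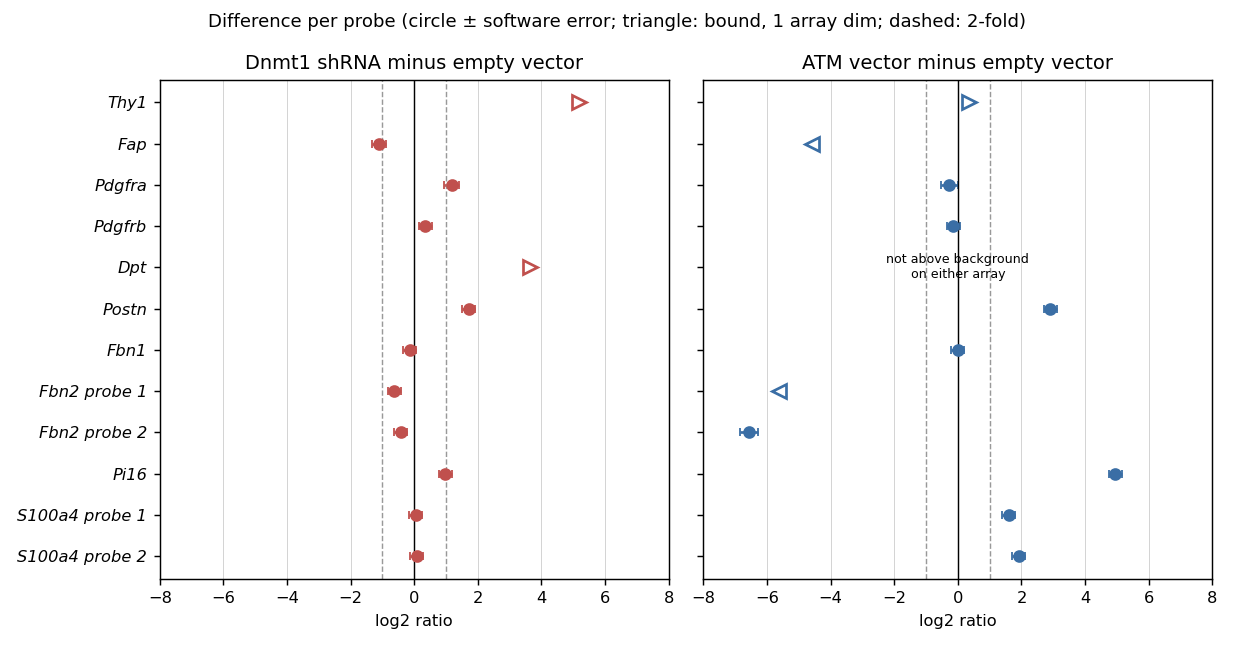
Log2 ratio of each probe (horizontal axis) for Dnmt1 shRNA minus empty-vector cells (left) and cells labelled ATM vector minus empty-vector cells (right). Circles are probes above background on both arrays with the software error of the ratio, triangles are bounds where 1 array was dim, and dashed lines mark 2-fold. Thy1 and Dpt lie far right only in the left panel, and Pi16 (4.95) and the Fbn2 probes lie at opposite ends of the right panel.

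Other surface markers of stromal cells were more often higher than lower in Dnmt1 shRNA cells and went both ways under the ATM vector label. Of 24 counted in Dnmt1 shRNA cells 6 were at least 2-fold higher, or 4 with bounds, and 1 was lower (median 0.23). Over all genes 7.86% were higher and 1.83% lower there. Of 21 in cells labelled ATM vector 4 were higher and 6 lower (4 with bounds), beside 8.69% and 8.08% of all genes, with a median of -0.073. The adhesion gene Alcam had -0.78 in Dnmt1 shRNA cells and -4.44 (21.8-fold lower) in cells labelled ATM vector. Icam1, an adhesion receptor for leukocytes, had 1.99 in Dnmt1 shRNA cells and was at least 1.31-fold lower in cells labelled ATM vector. The ferritin receptor gene Scara5 had 0.65 in Dnmt1 shRNA cells and 1.96 in cells labelled ATM vector. The proteoglycan gene Cspg4 had -0.29 in Dnmt1 shRNA cells and 1.88 in cells labelled ATM vector. Of GPI-anchored and Ly6 proteins, the surface class of Thy1, 0 of 12 were higher and 1 was lower in Dnmt1 shRNA cells (median -0.095), and 2 of 11 were higher and 1 lower in cells labelled ATM vector (median 0.39). They included the glypican gene Gpc1, at -0.60 in Dnmt1 shRNA cells and 2.01 in cells labelled ATM vector.

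Most genes of contractile fibroblasts lay inside the 2-fold limit in both comparisons, and those beyond it were higher. Of 13 myofibroblast genes counted, in Dnmt1 shRNA cells 3 were at least 2-fold higher, or 2 with bounds, and 0 lower (median 0.32), and 5 were higher, or 4 with bounds, and 0 lower in cells labelled ATM vector (median 0.62). Over all genes 7.86% were higher in Dnmt1 shRNA cells and 8.69% in cells labelled ATM vector. The smooth muscle actin gene Actg2 had the largest log2 ratios of the list, 2.81 in Dnmt1 shRNA cells and 4.66 in cells labelled ATM vector. Acta2 had 0.32 in Dnmt1 shRNA cells and 0.62 in cells labelled ATM vector, and Tagln had -0.0030 and -0.31 in that order. Palld (-0.63), Fhl2 (-0.32), Cald1 (-0.19) and Tpm1 (-0.067) were also negative under the ATM vector label, and the rest of the list was positive. Smooth muscle and pericyte markers above background numbered 7 of 10 in Dnmt1 shRNA cells, 7 in cells labelled ATM vector and 5 in empty-vector cells, without Myh11, Abcc9 and Kcnj8 on any array. Their summed scaled signal was 89.6 in Dnmt1 shRNA cells, 114 in cells labelled ATM vector and 70.9 in empty-vector cells, and its part in the Postn and Pi16 values was not tested. Of 24 mesenchymal transcription factors and fate genes 3 were higher (1 with bounds) and 1 lower in Dnmt1 shRNA cells (median 0.066). Under the ATM vector label 2 of 22 were higher and 5 lower (4 with bounds), with a median of 0.061. There Twist2 was at -3.06, Dlk1 at least 14.2-fold lower and Foxf2 at least 8.02-fold higher. The 15 housekeeping genes had 0 beyond 2-fold in either comparison, with medians of -0.054 in Dnmt1 shRNA cells and 0.42 in cells labelled ATM vector, where the median of all genes was 0.025.

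**Figure D4:**
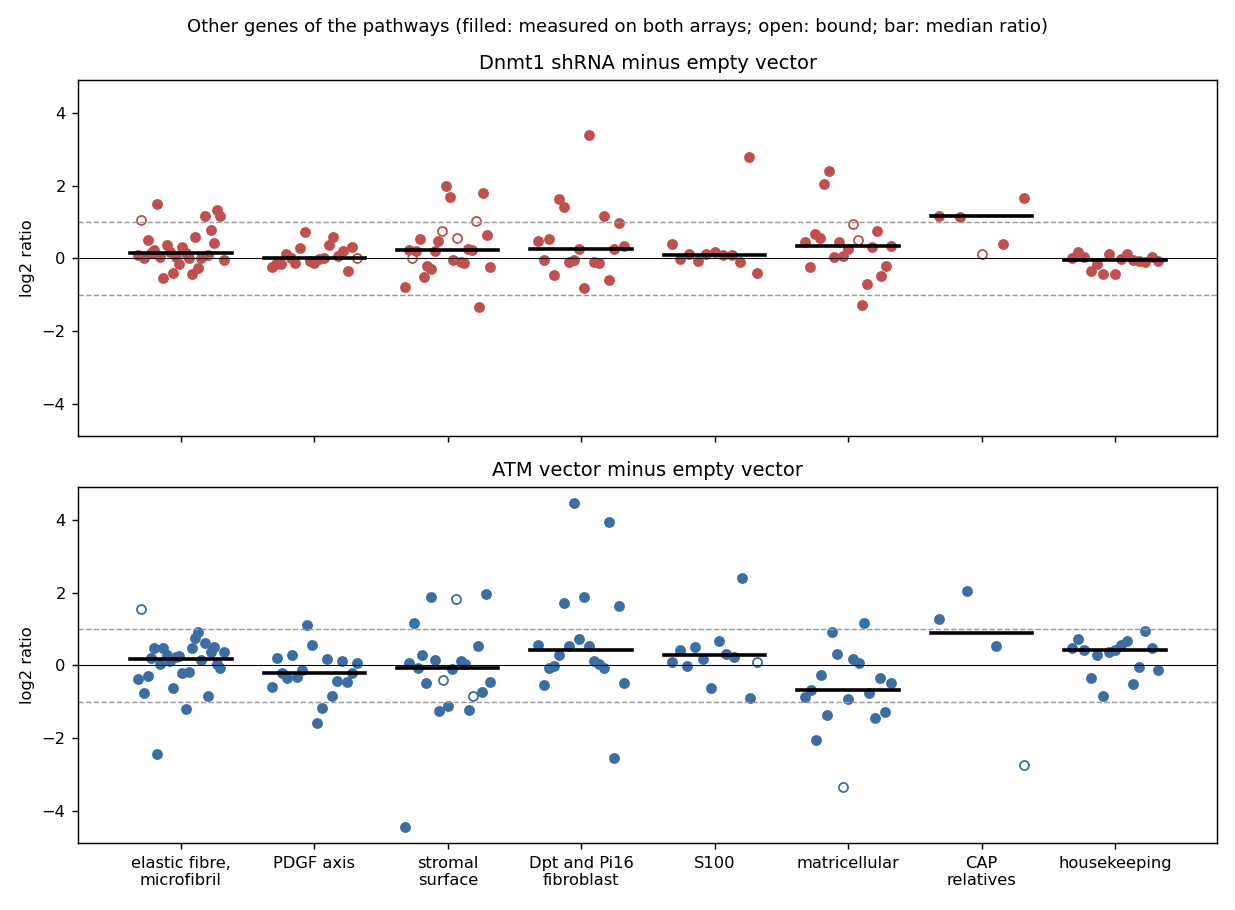
Log2 ratio of each other gene of 8 lists (points) and the list median (bar) for Dnmt1 shRNA cells minus empty-vector cells (top) and cells labelled ATM vector minus empty-vector cells (bottom). Open points are bounds and dashed lines mark 2-fold. CAP relatives, with 5 genes counted, have the highest median in the top panel (1.17), and matricellular genes the lowest in the bottom panel (-0.68).

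Neighbouring genes were read to see how local the differences were. The 3 nearest genes with a probe on each side of every gene gave 60 neighbours. For Dnmt1 shRNA cells 43 were counted, of which 2 were at least 2-fold higher and 0 lower, beside 7.86% and 1.83% of all genes. The higher 2 were C1qtnf5, the next gene but one from Thy1, at least 21.0-fold higher, and Csf1r, next to Pdgfrb. Csf1r was at 1.03 as the mean of 3 probes that disagreed in sign. Usp2, which lies between Thy1 and C1qtnf5 among genes with a probe, had 0.66. The ATM vector comparison counted 42, of which 3 were at least 2-fold higher and 4 lower, beside 8.69% and 8.08% of all genes. With this few neighbours, no local pattern is read from the counts.

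The lower 4 sat beside 3 of the genes and, like the other neighbours, are named after their values were seen. They were Ifih1 next to Fap (-2.08), Atp1b1 next to Dpt (-2.60), and Slc12a2 (-1.06) and Slc27a6 (at least 2.38-fold lower) on either side of Fbn2. The higher 3 were Kit and Lnx1 near Pdgfra, at least 6.41-fold and 5.53-fold higher, and Trim29 near Thy1, at least 2.13-fold higher. Pdgfra itself stood at -0.27 there. None of the counted neighbours of Postn and Pi16 was 2-fold different in that comparison.

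**Figure D5:**
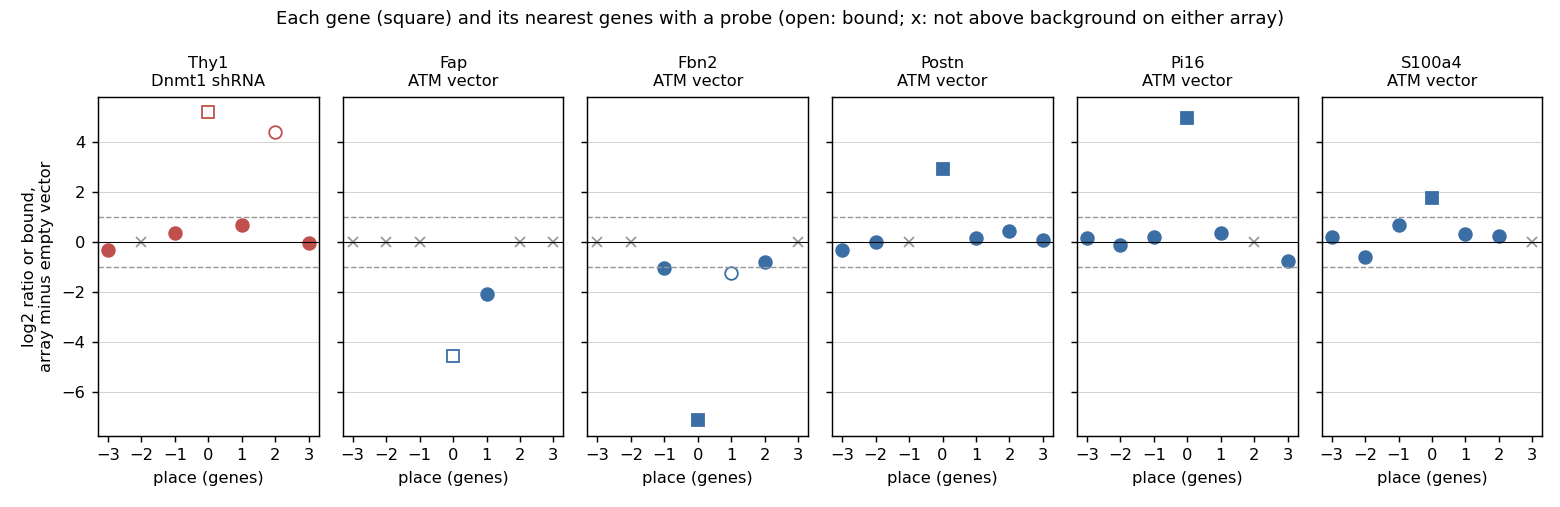
Log2 ratio or bound (vertical axis) of 6 genes (squares, place 0) and of the 3 nearest genes with a probe on each side (circles), for Dnmt1 shRNA cells minus empty-vector cells (red) and cells labelled ATM vector minus empty-vector cells (blue). Open symbols are bounds, crosses at 0 are genes not above background on either array, and the Fbn2 square is the mean of 2 probes. C1qtnf5, at place 2 from Thy1, stands high with it, and in cells labelled ATM vector the counted neighbours of Fbn2 are all below 0.

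Genes with the most similar pair of log2 ratios were looked up among 11768 named genes measured on all 3 arrays, by Euclidean distance over the 2 ratios. For Postn these were Edn1 (endothelin 1; distance 0.16), Sema3b (0.20) and Apobr (0.21), with 12 genes within 0.5. For Pi16 they were Itgb7 (0.40), Rbpjl (0.45) and Ifitm1 (0.59). Fbn2, taken as the mean of its probes, had no gene within 0.5, and its nearest were Slc43a3 (0.62), Fxyd6 (0.90) and Tmem176b (0.95). That mean includes the Fbn2 probe that was dim in cells labelled ATM vector. Only 0.12% of genes counted there had a lower ratio, and the number within 0.5 also depends on how extreme a ratio is. At less extreme ratios, 148 genes lay within 0.5 of Pdgfra, led by Kiss1r (0.031), Colec10 (0.059) and Mgmt (0.10). S100a4 had 158 such genes, led by Slc25a33 (0.012), Plcl1 (0.028) and Klrg2 (0.052). These distances rest on 3 arrays.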

How the data were processed

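Scanner output of 3 one-colour Agilent arrays was analysed, 1 per group taken from the transfection label. The authors deposited an intensity per spot made with Agilent Feature Extraction 10.7.3.1, with local background and a spatial trend subtracted, per the file headers. Flags for background, saturation and outlier spots are other per-spot marks in the deposited files. The 10 genes and all gene lists were chosen with earlier results of these data known.

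From 44397 spots per array, controls (leaving 43020) and 235, 167 and 228 outlier spots (Dnmt1 shRNA, ATM vector, empty vector) were removed. Log2 signals of a probe's spots were averaged, giving 39404 probes, and each array's 75th percentile was taken off. A probe was above background when most of its spots were flagged so. A gene's ratio is the mean over probes that were above background on 1 or both arrays. A gene dim on 1 array has a bound, set against the higher of its own signal and that array's lowest signal above background. Counts use measured ratios, and bounds where stated. Software errors are the deposited per-spot error estimates, combined for a ratio, and cover 1 scan, not cultures.

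Probe accessions without versions were matched to RefSeq genes of GRCm38.p6, and 26406 of 39429 probes had a symbol. The array was designed on another build, so no probe coordinates are given. Promoters were at hand for 6 of the 10 genes. The named genes are the 10 genes, up to 4 per list with the largest difference above background on both arrays or a bound of at least 2-fold, and the 3 nearest patterns of each gene measured on all 3 arrays and at least 2-fold different. Python 3.11.15, numpy 2.4.6, pandas 2.3.3, R 4.3.3 and limma 3.58.1 (normexp with offset 50) were used, and the calculation was tested on simulated data. Alternatives were the background correction, 3 scalings, the filter on dim probes, outlier spots, the deposited series matrix (each value within 0.495% of the same intensity) and a common detection level. The median SD of log2 signals over repeated spots was 0.047 (Dnmt1 shRNA), 0.051 (ATM vector) and 0.046 (empty vector).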

Additional observations from a re-analysis of the deposited data

How the results depend on the processing

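Of 148 alternative log2 ratios of single genes, 131 moved by less than the software error and 17 moved by more. Of them 0 changed the sign of a value beyond the 2-fold limit. The 17 came from normexp, median scaling or quantile normalization. The alternatives on dim probes, outlier spots and the series matrix reuse nearly the same spot values, so most ratios could hardly move there. The 131 of 148 is therefore not a measure of robustness. Among all alternatives run, signs changed for S100a4 on the Dnmt1 shRNA array (-0.18 to 0.18) and Fbn1 on the array labelled ATM vector (-0.044 to 0.0010), both near 0. With normexp on the median signals, chosen after seeing the data, the count of genes at least 2-fold lower on the Dnmt1 shRNA array was 0, with or without bounds, since Fap stood at -0.88. Over all genes normexp left 453 higher and 64 lower on the Dnmt1 shRNA array, against 1083 and 252, and 732 higher and 650 lower on the array labelled ATM vector, against 1150 and 1070. With probes above background on both arrays only, 2 genes were higher on the Dnmt1 shRNA array and 1 was lower on the array labelled ATM vector, with or without bounds, because Thy1, Dpt and Fap were dim on 1 array. That filter left 441 higher and 94 lower of all genes on the Dnmt1 shRNA array, and 754 and 563 on the array labelled ATM vector. With no filter on dim probes 565 of all genes were lower on the Dnmt1 shRNA array. Scaling by the median moved the median of all genes on the Dnmt1 shRNA array to -0.25, where Pdgfra stood at 0.94. Counts of genes at least 2-fold higher on the Dnmt1 shRNA array were 3 with normexp, median scaling or quantile normalization and 5 with scaling on probes detected on all 3 arrays. The planned normexp on mean signals was not run, and normexp on the median signals took its place. A slide block could not be fitted. No paired analysis was possible because each group had 1 array and no test was run. Dim signals limit Thy1, Dpt, Fap and 1 Fbn2 probe to bounds.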
